A study of Mus musculus with 31 samples.

Results

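Apln, Vegfd, Srpx2, Tspan7, Cask, Shroom2, Mtm1 and Gemin8 are 8 genes of the mouse X chromosome that were chosen, by symbol, because their total RNA differed between Xist-deleted and wild-type fibroblasts. They are 8 of 24470 genes in the exon count table, and all 8 were among the 12910 genes with enough reads to test, 415 of them X-linked. The exon totals that chose them came from the same 6 libraries, so their levels and fold changes are given as a description, with standard errors and no p-value. The fit across all genes includes them, and how many of them it called is given only beside the share called among all genes. P-values are given for other genes of their pathways and for their neighbours on the chromosome. The pathway lists were drawn up with earlier results of these data known, so their p-values and shares called are not an independent test.

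Expression was profiled by RNA-seq in 3 groups of female dermal fibroblasts from a CAST/Ei x 129/Sv/Jae mouse hybrid, with 2 libraries in each group. Line 1 is the cell line labelled XaWT XiΔXist and line 2 is the cell line labelled XaWT XiΔXist #2. In both, Xist was deleted from the inactive X after that chromosome had been silenced, and the active X kept an intact copy. Both are set against WT fibroblasts of the same hybrid, and none of the 3 groups received a treatment. Each deletion line is a single cell line, so the deletion and other differences between a line and WT cells cannot be told apart within that line. The labels call the libraries biological replicates without saying that they came from separate cultures, so p-values measure the spread between these libraries. The accessibility (ATAC-seq) and BRG1 ChIP-seq data of the series enter only as the authors' lists of classed X-linked sites.

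In female mammals a single X chromosome in each cell is silenced, and Xist is the noncoding RNA that coats it. Once silencing is established, DNA methylation and other chromatin marks also hold it, so most genes of that chromosome stay silent and their RNA comes from the other X. An X-linked gene can therefore change in total RNA because the silent copy is read again, or because the copy on the active X is read more or less. Reads over bases that differ between the parental genomes tell these cases apart where a gene has enough of them. BRG1, encoded by Smarca4, is the ATPase of the SWI/SNF chromatin remodeler.

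Between 3812311 and 7067525 exon counts per library entered the fit. Xist had 0.273 to 1.08 CPM (exon counts scaled to the effective size of the library, the unit of all levels given here) in the 4 libraries of lines 1 and 2, against 429 and 633 CPM in WT. All 9 fibroblast markers were detected, and their summed level was 3168 to 5104 CPM in line 1, 3885 to 4831 CPM in line 2 and 3904 to 4723 CPM in WT. Summed keratinocyte markers were 9.69 to 11.4 CPM in line 1, 12.0 to 19.1 CPM in line 2 and 49.0 to 50.4 CPM in WT, and smooth and skeletal muscle markers were 148 to 151 CPM in line 1, 398 to 427 CPM in line 2 and 385 to 411 CPM in WT. Single genes made up most of these sums. In WT, Dsp alone had 33.3 and 39.4 CPM of the keratinocyte sum, and Acta2 had 343 and 353 CPM of the muscle sum. Replicate 1 was the shallower library in every group.

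The 8 genes took several shapes across the 3 groups. Apln and Mtm1 stood at nearly the same level in both deletion lines, the first above WT and the other below it. Cask, Gemin8, Shroom2 and Vegfd were furthest from WT in line 1, with line 2 in between. Srpx2 and Tspan7 were highest in line 2, with line 1 in between. Whether libraries of different groups overlap is given below for single genes, as a description. The 8 genes were picked on these totals, and the share of all genes without overlap was not counted, so nothing is read from it.

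In edgeR's quasi-likelihood test across all genes, with Benjamini-Hochberg adjustment, a gene was called at an adjusted p under 0.05. In line 1 against WT this held for 7 of the 8 (4 higher, 3 lower; Srpx2 was the other), where 14.3% of all 12910 genes (6.75% higher, 7.55% lower) and 15.2% of the 415 X-linked genes were called. In line 2 against WT it held for 3 of the 8 (Apln, Srpx2 and Tspan7, all higher in that fit), where 3.58% of all genes (1.73% higher, 1.85% lower) and 4.82% of X-linked genes were called. With the replicate number as a block, or with no filter on low counts, it held for 4 in line 2, with Mtm1, lower than WT, as the other, and for 7 in line 1. DESeq2 called 5 in line 1, without Gemin8 and Mtm1, and 3 in line 2, without Mtm1. Upper-quartile scaling gave 6 in line 1, without Tspan7, and 3 in line 2. With only the groups compared in the edgeR fit, an adjusted p under 0.05 held for 4 in line 2, again with Mtm1, and 4 in line 1. Between line 2 and line 1 it held for 4 (Srpx2, Cask, Shroom2 and Vegfd), where 12.6% of all genes and 16.1% of X-linked genes were called. Among all genes, the block called 4182 in line 1 and 1565 in line 2, and DESeq2 called 1854 and 580. Upper-quartile scaling called 1855 and 466, the fit with no filter 2664 and 946, and that with only the groups compared 1257 and 792. The block and DESeq2 calls of the lists below stand beside the same totals. Because the 8 were picked on these totals, the counts are set beside those shares and nothing is read from them. The count for line 1 fell to 1 without WT replicate 1, 2 without WT replicate 2 and 4 without either line 2 library, and the count for line 2 was 0 without any 1 of the WT or line 2 libraries. Both comparisons use the same 2 WT libraries, so the values of the lines are given side by side and no agreement between them is counted. The median log2 fold change of the X-linked genes was 0.02 in line 1 and -0.02 in line 2.

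**Figure D1:**
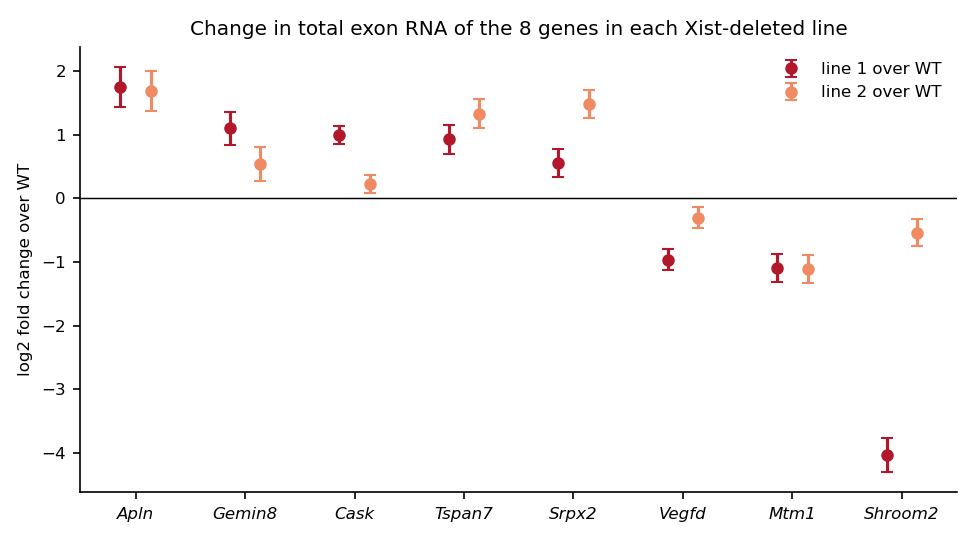
Log2 fold change of exon RNA over WT for the 8 genes, in line 1 (dark red) and line 2 (orange), with standard errors from the fit across all genes (n = 2 libraries per group). Genes are ordered by the line 1 value, which runs from 1.75 for Apln to -4.03 for Shroom2; the line 2 values run from 1.69 to -1.11.

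The starts of the 8 genes were first set beside the authors' classed sites, a readout that did not choose the genes. Sites are classed by the parental X on which they were accessible or bound BRG1: Monoallelic, Biallelic, or XiRestored, a class name that refers to the inactive X. The lists hold 356 Monoallelic, 27 Biallelic and 37 XiRestored accessible sites and 887, 60 and 189 BRG1 sites, with no score and with no samples of their own. A Monoallelic accessible site lay within 1 kb of the start of Cask, Mtm1, Vegfd and Gemin8, that is 4 of 8, against 170 of 415 X-linked genes (41.0%). A Monoallelic BRG1 site lay within 1 kb of the start of Vegfd only, 1 of 8 against 10.6% of X-linked genes. No XiRestored site of either kind lay within 100 kb of any of the 8 starts, where 8.92% (accessible) and 15.4% (BRG1) of X-linked genes had such a site. The nearest was a BRG1 site 304 kb from the start of Srpx2.

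At 3 of those 4 starts a promoter sequence was at hand (RefSeq, GRCm38.p6, the mm10 assembly), and these are shown because a Monoallelic accessible site overlaps each of them. Each sequence runs 5′ to 3′ along the gene over 300 bases, 250 before the start site and 50 from it on. Capitals mark matches on either strand to 6 motifs, namely the TATA box core TATAAA, the CCAAT box with the letters CCAAT, the E-box CACGTG, the GC box GGGCGG, the cAMP response element TGACGTCA and the ETS motif CCGGAAG.
Vegfd, chrX:164373272-164373571, plus strand: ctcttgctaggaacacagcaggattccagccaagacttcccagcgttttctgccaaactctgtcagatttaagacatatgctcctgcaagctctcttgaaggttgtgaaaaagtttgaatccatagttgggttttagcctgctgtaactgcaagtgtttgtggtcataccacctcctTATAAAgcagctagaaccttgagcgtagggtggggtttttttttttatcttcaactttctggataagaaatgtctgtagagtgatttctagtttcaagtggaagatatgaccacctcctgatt
Mtm1, chrX:71214756-71215055, plus strand: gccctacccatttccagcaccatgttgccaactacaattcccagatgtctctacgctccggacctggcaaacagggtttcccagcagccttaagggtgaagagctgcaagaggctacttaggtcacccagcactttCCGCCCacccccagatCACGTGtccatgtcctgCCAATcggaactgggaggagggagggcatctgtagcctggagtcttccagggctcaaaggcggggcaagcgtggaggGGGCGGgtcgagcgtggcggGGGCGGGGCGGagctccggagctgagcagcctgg
Gemin8, chrX:166170204-166170503, plus strand: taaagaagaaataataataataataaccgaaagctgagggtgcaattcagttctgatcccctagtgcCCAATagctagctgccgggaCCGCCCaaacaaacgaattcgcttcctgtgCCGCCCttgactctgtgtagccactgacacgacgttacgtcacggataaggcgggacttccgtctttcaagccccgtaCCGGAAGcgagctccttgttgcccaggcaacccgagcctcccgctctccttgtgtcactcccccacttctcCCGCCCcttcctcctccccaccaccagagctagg
The Vegfd window held 2 CpG dinucleotides, against 14 in the Mtm1 window, 18 in the Gemin8 window and a median of 7 over 32851 promoter windows of that length. Its 1 motif was TATAAA, which begins at -73 from the start site and occurs in 13.6% of all windows. The Mtm1 window held CACGTG at -98 (7.15% of windows), CCAAT at -81 (37.4%) and GGGCGG at -114, -4, 17 and 22 (35.7%), the last pair overlapping by 1 base. The Gemin8 window held CCAAT at -183, GGGCGG at -163, -133 and 17, and CCGGAAG at -55 (8.86%). TGACGTCA, present in 1.79% of windows, was in none of the 3. A match shows that the letters are there and nothing about binding.

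On the same scale, with the start site as 1, the accessible site at Mtm1 (chrX:71214753-71215156) spans -253 to 151 and that at Gemin8 (chrX:166170230-166170629) spans -224 to 176. At Cask (chrX:13846526-13846957) it spans -401 to 31. At Vegfd (chrX:164373146-164373364) it ends upstream, from -376 to -158, and a BRG1 site (chrX:164373459-164374025) covers -63 to 504. Vegfd held 7 Monoallelic BRG1 sites within its span, and Cask also held 7, all between 24776 and 120935 bases into the gene. Of the 8 genes, 2 held any, against 25.8% of the 415 X-linked genes. Numbers of sites were not scaled to gene length. Apln, Tspan7, Srpx2 and Shroom2 had no classed accessible site closer than 104 kb to the start, although a Monoallelic BRG1 site lay 8.06 kb from the start of Apln.

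Among the secreted proteins, Apln encodes the precursor of apelin, a peptide ligand of the receptor Aplnr with known roles in blood vessels. Apln (chrX:48025146-48034853, minus strand) had 10.5 and 16.7 CPM in line 1 and 13.3 and 13.1 CPM in line 2, against 3.79 and 4.32 CPM in WT. Every library of the deletion lines was above both WT libraries, and the 2 lines overlapped. Means were 13.6 ± 4.32 CPM in line 1, 13.2 ± 0.15 CPM in line 2 and 4.06 ± 0.375 CPM in WT (SD, n = 2 each), a log2 fold change of 1.75 (SE 0.31) in line 1 and 1.69 (SE 0.31) in line 2. Line 1 replicate 2 carried much of the line 1 value, which was 1.36 without that library. In bulk RNA, more cells that make a transcript and more transcript per cell cannot be told apart. Apln rested on few reads, 15 and 27 in WT.

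The receptor side of the apelin system was at the edge of detection. Aplnr had 0 reads in line 1, 0 and 1 in line 2 and 2 and 1 in WT, and Apela, the other ligand of that receptor, had 0 reads in all 6 libraries. Neither passed the filter on low counts. Furin, a proprotein convertase, had 355 and 277 CPM in line 1 and 296 and 287 CPM in line 2, against 355 and 310 CPM in WT (log2 fold change -0.07 and -0.19). Mme, neprilysin, another peptidase that cuts apelin, had 104 and 29.1 CPM in line 1 and 5.33 and 7.47 CPM in line 2, against 6.32 and 15.8 CPM in WT, and its log2 fold change of 2.52 in line 1 missed the threshold (adjusted p = 0.0609). The 2 tested genes of the list gave no call in either line. At an unadjusted p under 0.05 there was 1 in line 1 and 0 in line 2, and DESeq2 called 1 and 0. With the replicate number as a block, 1 and 0 were called.

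Vegfd encodes a growth factor of lymphatic vessels that binds the receptor tyrosine kinase Flt4. Vegfd (chrX:164373522-164402650, plus strand) had 20.8 and 19.8 CPM in line 1 and 33.4 and 30.6 CPM in line 2, against 39.2 and 39.7 CPM in WT. Groups did not overlap, and line 1 was lowest. Means were 20.3 ± 0.724 CPM in line 1, 32.0 ± 2.01 CPM in line 2 and 39.4 ± 0.371 CPM in WT (SD, n = 2 each), with log2 fold changes of -0.96 (SE 0.16) and -0.30 (SE 0.16). Of the promoter windows printed above, only that of Vegfd held a TATAAA motif. Monoallelic accessible and BRG1 sites lie on either side of that motif. Of 8 endothelial markers, Prox1, which marks lymphatic endothelium, was at 0 in all libraries, and the summed level was 2.70 to 3.41 CPM in line 1, 5.50 to 5.57 CPM in line 2 and 3.52 to 6.82 CPM in WT.

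Other VEGF ligands, receptors and processing factors moved both ways. Of 11 tested genes, 3 rose and 2 fell in line 1 (median log2 fold change 0.23), and 1 rose and 1 fell in line 2 (median -0.28), where the median of all genes was 0.01 in both lines. With the replicate number as a block, 8 and 4 were called. Among the receptors, Flt4, named after its values were seen, had 65.1 and 125 CPM in line 1 and 43.4 and 57.7 CPM in line 2, against 108 and 106 CPM in WT (-0.16 in line 1, adjusted p = 0.809; -1.08 in line 2, adjusted p = 0.159, on the log2 scale). Nrp2, a co-receptor for lymphatic VEGF ligands, rose in both lines, with 221 and 197 CPM in line 1 and 152 and 129 CPM in line 2, against 43.7 and 53.6 CPM in WT. On the log2 scale it was 2.09 above WT in line 1 (SE 0.16, adjusted p = 0.000973) and 1.52 above WT in line 2 (SE 0.16, adjusted p = 0.0105).

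Kdr, the main receptor of VEGF-A, had no read in line 1 and 5 and 4 reads in line 2, against 23 and 45 in WT. It was at least 24.5-fold lower in line 1, if the 2 empty libraries are given 3 counts between them (adjusted p = 0.00445). In line 2 its log2 fold change was -2.96 (SE 0.46, adjusted p = 0.0392). The endothelial marker Erg was also lower, with 1 and 1 reads in line 1 and 0 in line 2, against 20 and 13 in WT. Its log2 ratio of counts in line 1 to WT was -4.16 (95% counting interval -7.26 to -2.19; adjusted p = 0.0322), and it was at least 12.1-fold lower in line 2 (adjusted p = 0.0461). Tek, another endothelial marker, had 2.16 and 1.09 CPM in line 1 and 4.60 and 3.95 CPM in line 2, against 1.26 and 0.960 CPM in WT (0.47, adjusted p = 0.686, and 1.94, adjusted p = 0.0767). The Erg call in line 1 was lost without WT replicate 1 or either line 1 library (up to 0.132), and that in line 2 without any 1 of the 6 libraries (up to 0.266). The part of these markers in the Kdr value was not tested. Ccbe1 encodes a secreted factor needed to process the precursor of Vegfc. It rose to 191 and 279 CPM in line 1, against 15.9 and 14.2 CPM in WT, and was at 7.51 and 16.2 CPM in line 2. For line 1 this was a log2 fold change of 3.97 with SE 0.36 and an adjusted p of 0.00159, and for line 2 it was -0.28 with an adjusted p of 0.870. Pgf, a ligand of Flt1, rose in line 1 (21.1 and 9.55 CPM, against 2.27 and 1.76 CPM in WT; log2 fold change 2.90, SE 0.50, adjusted p = 0.0137), and had 5.33 and 3.95 CPM in line 2. Vegfc, the nearest relative of Vegfd and named after its values were seen, fell to 19.2 and 14.2 CPM in line 1, against 29.8 and 30.1 CPM in WT (log2 fold change -0.86, SE 0.21, adjusted p = 0.0442). Vegfa, the best known ligand of the family, gave 0.43 (adjusted p = 0.305) in line 1 and -0.11 (adjusted p = 0.926) in line 2. Left out in turn, each WT library ended the Pgf call (adjusted p up to 0.0972), every library but line 1 replicate 1 ended the Vegfc call (up to 0.209), and each WT and line 2 library ended the line 2 calls of Kdr (up to 0.355) and Nrp2 (up to 0.0824).

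Srpx2 encodes a secreted sushi-repeat protein that binds the urokinase receptor and is known for roles in angiogenesis and synapse formation. Srpx2 (chrX:133908425-133932446, plus strand) had 73.8 and 49.5 CPM in line 1 and 114 and 121 CPM in line 2, against 37.1 and 46.1 CPM in WT. Line 2 was far above the other groups, while line 1 replicate 2 was only just above WT replicate 2. Means were 61.7 ± 17.1 CPM in line 1, 118 ± 4.85 CPM in line 2 and 41.6 ± 6.33 CPM in WT (SD, n = 2 each), with log2 fold changes of 0.55 (SE 0.22) and 1.49 (SE 0.22). The line 1 value was between 0.24 and 0.82 when 1 library was left out.

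Of 11 tested genes of the urokinase system and other Srpx2 partners, 3 rose and 1 fell in line 1 (median 0.11), and 0 rose and 1 fell in line 2 (median 0.01). The block brought these to 7 and 3 calls. Plau, urokinase, rose to 140 and 165 CPM in line 1, against 37.6 and 58.7 CPM in WT, and had 79.2 and 90.7 CPM in line 2. For line 1 this was a log2 fold change of 1.65 with SE 0.23 and an adjusted p of 0.00644, and for line 2 it was 0.81 with an adjusted p of 0.144. Hgf, hepatocyte growth factor, to which Srpx2 binds, rose in line 1 (25.7 and 32.9 CPM, against 6.32 and 8.80 CPM in WT; log2 fold change 1.94, SE 0.44, adjusted p = 0.0351). Ctsb, cathepsin B, rose in line 1 by 0.74 (SE 0.14, adjusted p = 0.0200).

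Srpx, the X-linked relative of Srpx2, went the other way in both lines. It had 10.0 and 4.37 CPM in line 1 and 0.969 and 0.846 CPM in line 2, against 23.7 and 31.2 CPM in WT, with log2 fold changes of -2.01 (SE 0.40, adjusted p = 0.0229) and -4.91 (SE 0.51, adjusted p = 0.0107). The Srpx calls were lost without either WT library in line 1 (adjusted p up to 0.130), and without WT replicate 2 or either line 2 library in line 2 (up to 0.110). Those of Hgf (up to 0.183) and Ctsb (up to 0.143) were lost without either WT library and also, for Hgf, without line 1 replicate 2 and, for Ctsb, without line 2 replicate 1.

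**Figure D2:**
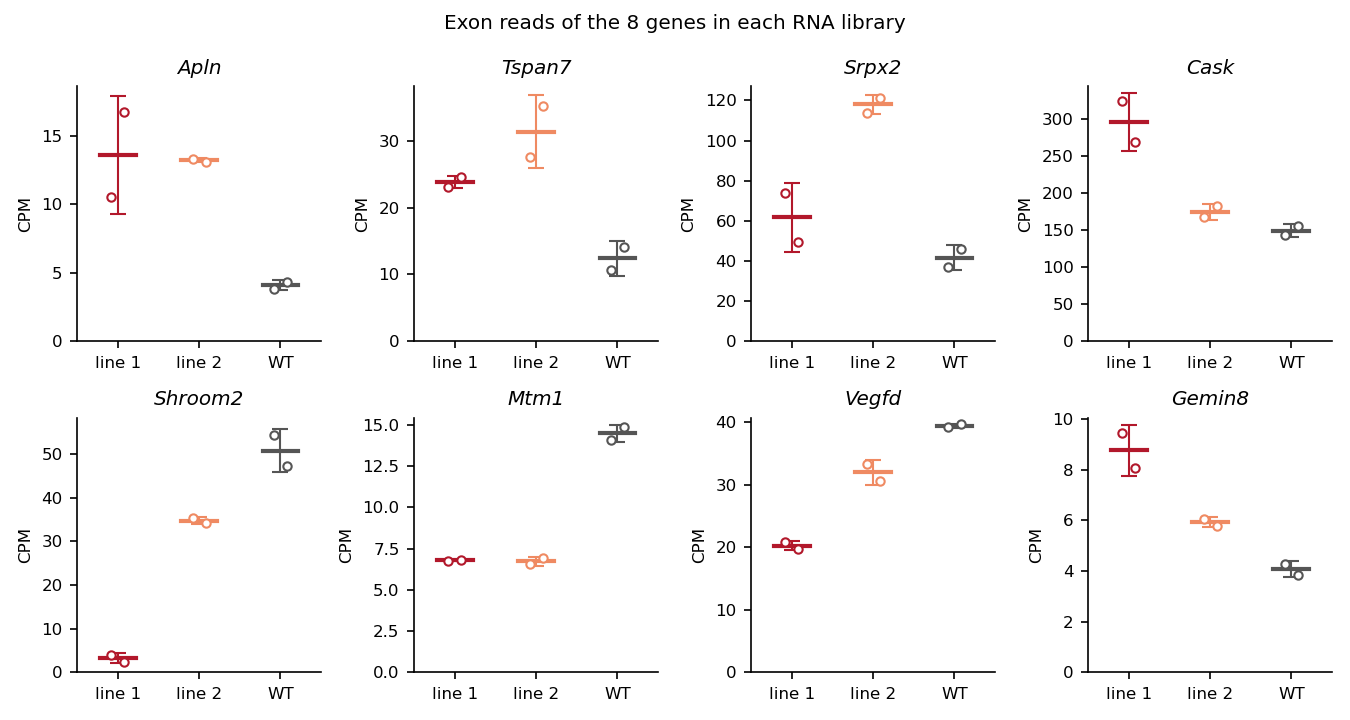
CPM of the 8 genes in each RNA library (open circles) of line 1, line 2 and WT, with the group mean (thick bar) and SD (thin bar, n = 2), on linear axes from 0. Circles of line 1 for Srpx2 and of line 2 for Cask come close to those of WT. Shroom2 is near 0 in line 1 (4.05 and 2.46 CPM), and Apln and Mtm1 show lines 1 and 2 at one height.

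Among membrane and junction proteins, Tspan7 encodes a tetraspanin, a membrane protein that organises receptors and integrins at the cell surface. Tspan7 (chrX:10485116-10596604, plus strand) had 23.2 and 24.6 CPM in line 1 and 27.6 and 35.4 CPM in line 2, against 10.6 and 14.2 CPM in WT. All 4 libraries of the lines were above WT, and line 2 was the highest. Means were 23.9 ± 0.933 CPM in line 1, 31.5 ± 5.49 CPM in line 2 and 12.4 ± 2.57 CPM in WT (SD, n = 2 each), with log2 fold changes of 0.93 (SE 0.23) and 1.33 (SE 0.23).

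In the rest of the tetraspanin family, 3 of 19 tested genes rose and 4 fell in line 1 (median -0.21), and 1 rose and 1 fell in line 2 (median 0.02). With the block, 10 and 5 were called. Cd53, a tetraspanin of leukocytes, had 8.38 and 18.3 CPM in line 1 and 0.727 and 1.13 CPM in line 2, against 1 read in each WT library. The ratio of its counts in line 1 to WT was 6.25 on the log2 scale, with a 95% counting interval of 4.38 to 9.31 (adjusted p = 0.00331). Summed leukocyte markers were 8.73 to 18.9 CPM in line 1, 20.1 to 22.4 CPM in line 2 and 14.9 to 15.2 CPM in WT, and the sum joins members with unlike values. Cd68 had 48 and 36 reads in line 1 and 11 and 16 in line 2, against 9 and 13 in WT (log2 fold change 1.98 in line 1, adjusted p = 0.0605). Lyz2 fell to 4.87 and 1.91 CPM in line 1, against 11.4 and 12.2 CPM in WT (-1.91, adjusted p = 0.0307), a call lost without any WT or line 2 library (up to 0.141). Ptprc, which all leukocytes carry, had at most 1 read in any library, and the part of these markers in the Cd53 value was not tested. Tspan14, a partner of the protease Adam10, rose to 61.4 and 62.5 CPM in line 1, against 25.5 and 32.5 CPM in WT (log2 fold change 1.09, SE 0.17, adjusted p = 0.0109). Tspan15, another Adam10 partner, fell to 4.32 and 2.46 CPM in line 1, against 17.4 and 15.5 CPM in WT (-2.34, SE 0.31, adjusted p = 0.00560), and had 16.2 and 15.4 CPM in line 2.

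Tspan2 moved in opposite directions. It fell to 0.811 and 1.09 CPM in line 1 and rose to 17.7 and 23.7 CPM in line 2, against 4.55 and 6.56 CPM in WT, with log2 fold changes of -2.49 (SE 0.40, adjusted p = 0.0110) and 1.88 (SE 0.29, adjusted p = 0.0298). Tspan11, named after its values were seen, did the reverse, with 103 and 121 CPM in line 1 and 0 and 0.564 CPM in line 2, against 24.8 and 7.04 CPM in WT (2.87, SE 0.56, adjusted p = 0.0208, and -5.35, SE 0.98, adjusted p = 0.0442). Without WT replicate 1 the Tspan14 call was lost (adjusted p = 0.0817), and without WT replicate 2 that of Tspan2 in line 1 (adjusted p = 0.0782). In line 2 the Tspan2 call was lost without any WT or line 2 library (up to 0.254), and that of Tspan11 without WT replicate 1 or either line 2 library (up to 0.213).

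Cask encodes a membrane-associated scaffold with a kinase-like domain that links cell-surface proteins to the cytoskeleton. Cask (chrX:13517081-13846556, minus strand) had 324 and 269 CPM in line 1 and 167 and 182 CPM in line 2, against 143 and 155 CPM in WT. Line 1 was well apart, and line 2 was just above WT. Means were 296 ± 39.1 CPM in line 1, 174 ± 10.6 CPM in line 2 and 149 ± 8.58 CPM in WT (SD, n = 2 each), with log2 fold changes of 0.99 (SE 0.14) and 0.22 (SE 0.14). Gpr34 and Gpr82 lie inside Cask on the other strand. The levels are counts over exons, and whether exons of these inner genes overlap those of Cask was not checked. The sources used here do not state the strand setting of the counting, which matters only where exons overlap.

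Among 26 tested partners and related scaffolds of Cask, 1 rose and 2 fell in line 1 (median -0.20). In line 2 edgeR called 0 of 26 (median -0.04), with 4 at an unadjusted p under 0.05 and 1 by DESeq2. The block gave 15 calls in line 1 and 3 in line 2. Magi3, a scaffold of cell junctions, fell to 59.2 and 57.9 CPM in line 1, against 119 and 133 CPM in WT, with 135 and 135 CPM in line 2 (line 1 log2 fold change -1.11, SE 0.11, adjusted p = 0.00243). Dlg2, a scaffold of the Cask superfamily, rose to 12.7 and 11.2 CPM in line 1, against 1.26 and 2.24 CPM in WT (2.69, SE 0.40, adjusted p = 0.00810), and had 1.94 and 0.987 CPM in line 2. Mpp3 had 1 read in each line 1 library, 10 and 16 in line 2 and 5 and 14 in WT, a log2 ratio of counts in line 1 to WT of -3.36 (95% counting interval -6.51 to -1.31; adjusted p = 0.0225). Lin7a, a direct Cask partner, had 3 and 3 reads in line 1, 15 and 17 in line 2 and 6 and 14 in WT, and missed the threshold in line 1 (-1.76, adjusted p = 0.0913). The Dlg2 call was lost without WT replicate 1 (adjusted p = 0.0616), and the Mpp3 call without any library but line 1 replicate 1 (up to 0.194).

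Shroom2 encodes an actin-binding protein with known roles in cell shape and contractility. Shroom2 (chrX:152609509-152769486, minus strand) had 4.05 and 2.46 CPM in line 1 and 35.4 and 34.3 CPM in line 2, against 54.3 and 47.4 CPM in WT. Line 1 was close to 0, and line 2 lay between line 1 and WT. Means were 3.26 ± 1.13 CPM in line 1, 34.8 ± 0.785 CPM in line 2 and 50.8 ± 4.92 CPM in WT (SD, n = 2 each), with a fitted log2 fold change of -4.03 (SE 0.27), 16.3-fold lower than WT, in line 1 and -0.54 (SE 0.21) in line 2.

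The exon table also holds shorter Shroom2 transcripts that start inside the gene. The count of the long transcript minus that of the shortest-span transcript was 0.5 and 2 in line 1 and 87 and 149 in line 2, against 132 and 182.5 in WT. This is a net difference, because reads in exon sequence of the short transcript alone would lower it. Reads of that short transcript itself were 14 and 16 in line 1 and 59 and 93.5 in line 2, against 83 and 113.5 in WT. Both the difference and the count of the short transcript were lowest in line 1. Reads in the upstream exons alone were not counted. Of the 8 keratinocyte markers, 5 had at most 3 reads in any library and 3 were tested. Dsp, a desmosome gene, had a log2 fold change of -5.58 (adjusted p = 0.00126) in line 1 and -3.85 (adjusted p = 0.00985) in line 2, and Trp63 had -3.03 (adjusted p = 0.0279) and -0.66 (adjusted p = 0.689). Krt10, the third of them, had 8.92 and 8.33 CPM in line 1 and 9.69 and 7.76 CPM in line 2, against 8.08 and 5.92 CPM in WT (0.31, adjusted p = 0.553, and 0.32, adjusted p = 0.745). The Dsp call in line 2 was lost without either WT library or line 2 replicate 2 (adjusted p up to 0.0790), and the Trp63 call in line 1 without either WT library or line 1 replicate 2 (up to 0.121). The part of these markers in the Shroom2 value was not tested.

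Of 11 tested genes of the Shroom family and of actomyosin, 0 rose and 3 fell in line 1 (median -0.34), and 1 rose and 0 fell in line 2 (median -0.01). With the block, 6 and 1 were called. The 3 that fell include 2 relatives of Shroom2. Shroom1 had 2.43 and 1.36 CPM in line 1 and 17.4 and 15.5 CPM in line 2, against 22.5 and 19.8 CPM in WT (line 1 log2 fold change -3.55, SE 0.32, adjusted p = 0.00156). Shroom3 fell to 2.43 and 0.819 CPM in line 1 and rose to 31.0 and 27.2 CPM in line 2, against 7.58 and 4.96 CPM in WT (-2.09, SE 0.50, adjusted p = 0.0422, and 2.24, SE 0.38, adjusted p = 0.0380). Myl9, a myosin regulatory light chain, fell to 32.4 and 32.9 CPM in line 1, against 159 and 147 CPM in WT (-2.23, SE 0.15, adjusted p = 0.000747), and had 173 and 138 CPM in line 2. Smooth-muscle actin, Acta2, was also lower in line 1 (-1.25, adjusted p = 0.00147), as was calponin, Cnn1 (-5.18, adjusted p = 0.000780). The Shroom3 calls were lost without any library but line 1 replicate 1 in line 1 (adjusted p up to 0.172), and without any WT or line 2 library in line 2 (up to 0.232).

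Mtm1 encodes myotubularin, a lipid phosphatase that removes a phosphate from phosphatidylinositol 3-phosphate (PI3P) on endosomes, and its human form is mutated in X-linked myotubular myopathy. Mtm1 (chrX:71215006-71315295, plus strand) had 6.76 and 6.82 CPM in line 1 and 6.54 and 6.91 CPM in line 2, against 14.1 and 14.9 CPM in WT. The libraries of both lines were at about the same level and none came near WT. Means were 6.79 ± 0.0469 CPM in line 1, 6.73 ± 0.26 CPM in line 2 and 14.5 ± 0.519 CPM in WT (SD, n = 2 each), with log2 fold changes of -1.09 (SE 0.22) and -1.11 (SE 0.22). The accessible Monoallelic site over the promoter printed above is the nearest classed site to its start.

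Among 22 tested myotubularins and PI3P enzymes, 1 rose and 2 fell in line 1 (median -0.03). In line 2 edgeR called 0 of 22 (median -0.03), with 1 at an unadjusted p under 0.05 and 1 by DESeq2. The block gave 10 calls in line 1 and 1 in line 2. The nearest relatives of Mtm1 gave no call. Mtmr1, which lies beside it on the X, had 26.8 and 41.8 CPM in line 1 and 30.3 and 37.5 CPM in line 2, against 29.6 and 35.4 CPM in WT (log2 fold change 0.09, SE 0.26, adjusted p = 0.884, and 0.06, SE 0.26, adjusted p = 0.977). Pik3c2b, a lipid kinase, fell to 2.97 and 3.41 CPM in line 1, against 21.2 and 19.4 CPM in WT (-2.64, SE 0.23, adjusted p = 0.00141), and had 17.2 and 17.1 CPM in line 2. Sbf2, an inactive myotubularin, fell in line 1 by 1.30 (SE 0.30, adjusted p = 0.0369), and Mtmr11, another inactive relative, rose by 0.64 (SE 0.13, adjusted p = 0.0222). Both of these were lost without any WT or line 2 library, with adjusted p up to 0.199 for Sbf2 and 0.159 for Mtmr11.

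Gemin8 encodes a subunit of the SMN complex, which loads Sm proteins onto small nuclear RNAs. Gemin8 (chrX:166170454-166190512, plus strand) had 9.46 and 8.05 CPM in line 1 and 6.06 and 5.78 CPM in line 2, against 4.29 and 3.84 CPM in WT. Groups did not overlap: both line 1 libraries were above those of line 2, which were above those of WT. Means were 8.76 ± 0.996 CPM in line 1, 5.92 ± 0.195 CPM in line 2 and 4.07 ± 0.321 CPM in WT (SD, n = 2 each), with log2 fold changes of 1.10 (SE 0.26) and 0.54 (SE 0.27). Counts were low, 17 and 24 in WT.

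The other SMN complex members and Sm proteins were called in neither line. edgeR called 0 of 18 in line 1 and 0 of 18 in line 2, with 1 and 0 at an unadjusted p under 0.05 and 0 and 0 by DESeq2, and the medians were -0.10 and -0.04. The block gave 3 and 0 calls. Smn1, the core subunit, had 61.9 and 62.0 CPM in line 1 and 51.4 and 53.2 CPM in line 2, against 55.6 and 61.0 CPM in WT (0.09, SE 0.13, adjusted p = 0.751, and -0.16, SE 0.13, adjusted p = 0.720).

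**Figure D3:**
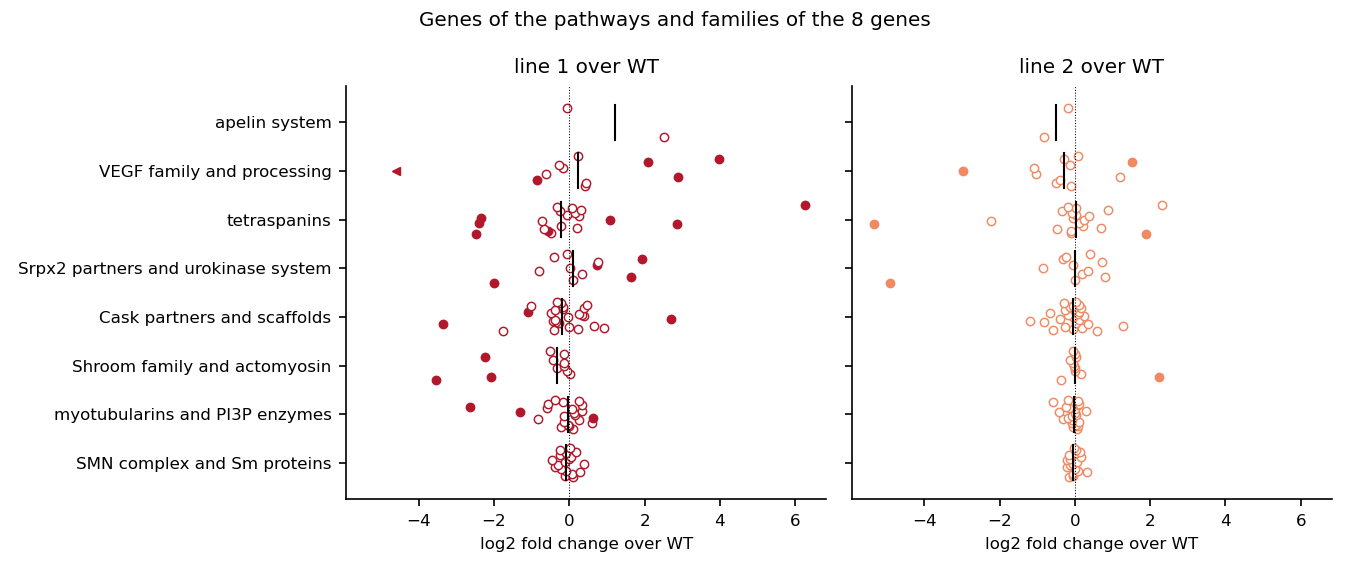
Log2 fold change over WT of the tested genes in 8 pathway or family lists (120 genes), in line 1 (left) and line 2 (right); filled symbols passed an adjusted p of 0.05, black bars are list medians, and the triangle is Kdr at its bound in line 1. Called genes lie on both sides of 0 in the tetraspanin and VEGF rows, and the SMN row has none.

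Over all 8 lists, 25 of 120 tested genes were called in line 1 (11 higher, 14 lower; 20.8%, against 14.3% of all genes) and 6 in line 2 (3 higher, 3 lower; 5.00%, against 3.58%). With the replicate number as a block, 60 and 17 were called, where that fit called 4182 and 1565 of all 12910 genes. The lists were drawn up with earlier results of these data known, so nothing is read from the shares. Of the 25, 11 were called in every fit that left out 1 of the 6 libraries (Kdr, Nrp2, Ccbe1, Tspan11, Tspan15, Cd53, Plau, Magi3, Shroom1, Myl9 and Pik3c2b), and of the 6 in line 2 none was. The count for line 1 was 13 without either WT library, and that for line 2 was 1 without either WT library and 0 without either line 2 library.

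Per length, the 8 genes spanned a wide range. In WT the exon level per kilobase of transcript was 20.7 CPM per kb for Vegfd, 18.2 for Cask and 14.5 for Srpx2, followed by 7.01 for Tspan7, 6.76 for Shroom2, 4.42 for Mtm1, 2.19 for Gemin8 and 1.29 CPM per kb for Apln. In line 1 the highest was Cask at 36.1 CPM per kb and the lowest was Shroom2 at 0.433 CPM per kb. In line 2 the highest was Srpx2 at 41.0 CPM per kb and the lowest was Mtm1 at 2.05 CPM per kb.

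The neighbourhoods of the 8 genes were also examined, by the nearest tested genes at any distance. Stag2 lay 5750 kb from Apln, and Fancb, the nearest on one side of Gemin8, lay 1170 kb from it. Piga, Mospd2 and Fancb are neighbours of both Vegfd and Gemin8, so these sets are not separate. The 3 nearest tested genes on either side of each, 45 genes in all after shared ones were counted once, gave 9 calls in line 1 (2 higher, 7 lower; 20.0%, against 15.2% of X-linked genes) and 3 in line 2 (1 higher, 2 lower; 6.67%, against 4.82%). With the replicate number as a block these were 14 and 10, and DESeq2 called 5 and 2. Of all 12910 genes, the block called 4182 and 1565, and DESeq2 called 1854 and 580. By edgeR, Shroom2 had the most called neighbours, 3 of 6, all lower in line 1. DESeq2 called only 1 of these 3 in line 1, Mageh1, and it called 2 neighbours of Tspan7 there. In line 2 edgeR called 0 of the 6 around Shroom2, with 1 at an unadjusted p under 0.05 and 0 by DESeq2. Mageh1, 267 kb away, had 1 and 2 reads in line 1 and 74 and 94 in line 2, against 68 and 93 in WT, a log2 ratio of counts in line 1 to WT of -5.86 (95% counting interval -8.15 to -4.28; adjusted p = 0.000780). Klf8, 469 kb away, had 2 and 1 reads in line 1 and 3 and 5 in line 2, against 9 and 18 in WT (-3.28, interval -5.65 to -1.58; adjusted p = 0.0186). Gpr173, 241 kb away on the other side, had 6.49 and 5.73 CPM in line 1 and 12.1 and 11.6 CPM in line 2, against 12.4 and 13.6 CPM in WT (-1.10, SE 0.23, adjusted p = 0.0253). The next genes out, Tspyl2 and Kantr on one side and Ubqln2 on the other, were not called.

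Mamld1, 60.3 kb from Mtm1, was lower in both lines, as Mtm1 was, with 4.32 and 3.41 CPM in line 1 and 3.15 and 2.12 CPM in line 2, against 8.59 and 10.1 CPM in WT (-1.30, SE 0.31, adjusted p = 0.0401, and -1.86, SE 0.32, adjusted p = 0.0384). Around Srpx2, Tnmd (tenomodulin, a tendon gene), 42.8 kb away, had 0 reads in line 1 and 61 and 143 in line 2, against 2 and 5 in WT, which in line 2 was 4.65 on the log2 scale (SE 0.41, adjusted p = 0.0110). Pcdh19, a protocadherin 219 kb from Srpx2, rose in line 1 (0.97, SE 0.18, adjusted p = 0.0187), and Sytl4, 3.94 kb away, fell (-1.91, SE 0.47, adjusted p = 0.0453). AA414768, 579 kb from Cask, rose in line 1 (2.24, SE 0.31, adjusted p = 0.00690), and Bcor, 1440 kb from Tspan7, fell (-0.53, SE 0.13, adjusted p = 0.0399). Srpx, described above as a relative of Srpx2, is itself a neighbour of Tspan7, 367 kb away.

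None of the 6 neighbours of Apln, Vegfd or Gemin8 was called by edgeR or DESeq2 in either line, and 1, 1 and 0 of them in line 1 and 1, 0 and 0 in line 2 had an unadjusted p under 0.05. With the replicate number as a block, 1 neighbour of Apln and 1 of Vegfd were called in line 1, and 1 of Apln in line 2. Car5b, 346 kb from Vegfd, had a log2 fold change of 0.81 (SE 0.22, adjusted p = 0.0574) in line 1. Pir, which ends 0.509 kb from Vegfd, had log2 fold changes of -0.09 and 0.10. Mageh1 was called in every fit that left out 1 library. Each other neighbour call in line 1 was lost without WT replicate 2, and all but that of AA414768 also without WT replicate 1, so that 2 calls were left without WT replicate 1 and 1 without WT replicate 2. Those of Bcor, Sytl4, Gpr173, Klf8 and Mamld1 were also lost without line 1 replicate 2 or either line 2 library (adjusted p up to 0.253). In line 2 no call was left without WT replicate 2 or without either line 2 library, and 1, that of Srpx, without WT replicate 1.

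**Figure D4:**
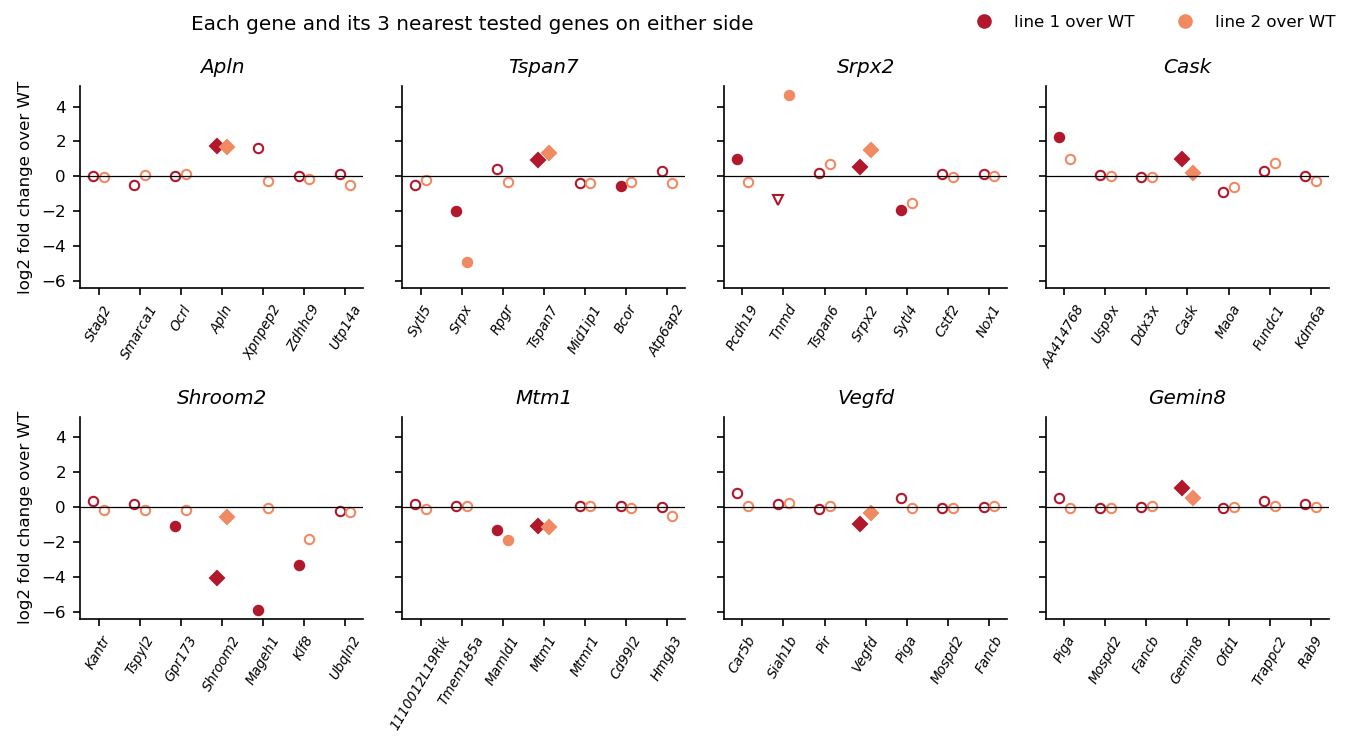
Log2 fold change over WT of each of the 8 genes (diamonds) and of its 3 nearest tested genes on either side in chromosome order, in line 1 (dark red) and line 2 (orange); filled circles passed an adjusted p of 0.05, open ones did not, and the triangle is Tnmd at its bound in line 1. Shroom2 in line 1 has called neighbours at -1.10 to -5.86, whereas all circles around Vegfd and Gemin8 are open, between -0.09 and 0.81.

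Allele reads were at hand for Srpx2, Cask and Vegfd, 3 of the 8, in the authors' deposited table of 205 X-linked genes. Few X-linked reads came from the mus genome in any group. In the 6 libraries the median gene drew 0 to 1.39% of its allele reads from mus, and 180 to 183 of 205 genes drew under 10%. Cask had 217.5 and 323.5 cas reads with 4 and 2 mus reads in line 1, 130.5 and 214.5 cas with 2 and 3.5 mus in line 2, and 87 and 140 cas with 1.5 and 2 mus in WT. Pooled by group, mus made up 1.10% of whole reads in line 1 (exact 95% interval 0.404 to 2.38), 1.43% in line 2 (0.467 to 3.31) and 1.30% in WT (0.270 to 3.76). The cas level of Cask, scaled as CPM are, was 51.5 ± 10.3 in line 1, 30.9 ± 0.99 in line 2 and 22.2 ± 0.283 in WT (SD, n = 2 each), a log2 ratio to WT of 1.21 and 0.48, where the fitted change of total RNA was 0.99 and 0.22.

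Srpx2 had 31 and 37 cas reads in line 1 and 51.5 and 90.5 in line 2, against 14 and 36.5 in WT. Its mus reads were 2.5 and 2.5 in line 1, 1.5 and 6 in line 2 and 0.5 (which stands for none) and 2.5 in WT. The mus share was 5.56% in line 1 (exact 95% interval 1.53 to 13.6), 4.73% in line 2 (1.92 to 9.50) and 3.85% in WT (0.469 to 13.2). In WT replicate 1, 0 of 14 whole reads were mus, which allows a share of up to 21.4% by the limit of 3 counts, and up to 23.2% by the exact interval. The log2 ratio of cas levels to WT was 0.52 and 1.43, where total RNA gave 0.55 and 1.49.

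Vegfd had 19.5 and 29.5 cas reads in line 1 and 36.5 and 47 in line 2, against 32.5 and 56.5 in WT, with 0.5 to 2.5 mus reads in every library. The mus share was 4.00% in line 1 (0.488 to 13.7), 3.49% in line 2 (0.725 to 9.86) and 3.30% in WT (0.685 to 9.33). The log2 ratio of cas levels to WT was -0.89 and -0.16, where total RNA gave -0.96 and -0.30. For all 3 genes the intervals of the mus share overlapped between groups, so no difference in that share was detectable at this depth, and nearly all allele reads in every library were cas reads. The authors' deposited table classes each of the 3 as Monoallelic in all 4 of its comparisons. The intervals cover counting error only. The other 5 genes were not in that table, so the parental origin of their RNA was not analysed here.

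**Figure D5:**
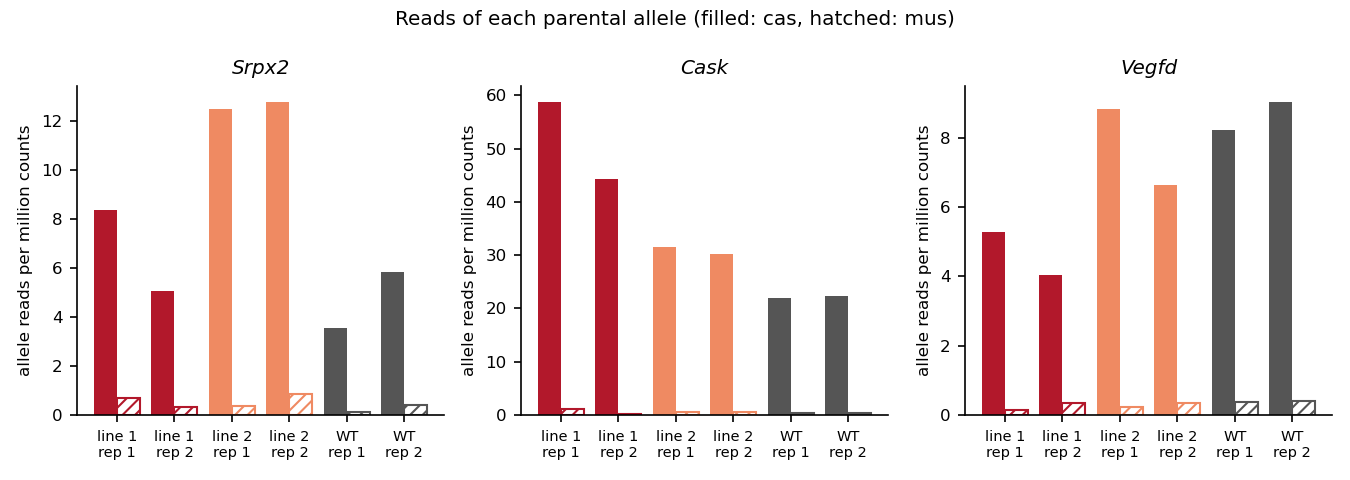
Allele reads of Srpx2, Cask and Vegfd in each library, scaled as CPM are, cas (filled bars) and mus (hatched bars), for line 1, line 2 and WT; a deposited mus value of 0.5, drawn as it is, stands for no read. The cas bars carry the differences between groups, and the mus bars stay at or below 1.08 CPM.

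As a description over the 6 libraries, the 2 X-linked genes most like each of the 8 were found among the other 414 by Pearson's r of log2 CPM. The libraries share 3 group means and the split in depth, so high values are easily reached. For Shroom2 they were its neighbour Gpr173 (0.993) and its neighbour Mageh1 (0.986), and for Mtm1 they were Tsix (0.991) and Rnf128 (0.991). Tspan7 was nearest to Brwd3 (0.992) and Slc35a2 (0.966), Vegfd to Mtap7d3 (0.985) and Zcchc18 (0.982), and Cask to Timp1 (0.980) and Atp7a (0.969). Gemin8 was nearest to AA414768 (0.985), which neighbours Cask, and to Timp1 (0.978). Apln and Srpx2 had the lowest values, 0.960 for G6pdx and 0.953 for Las1l beside Apln, and 0.956 for Stard8 and 0.937 for Adgrg2 beside Srpx2.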

How the data were processed

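RNA was sequenced from 6 libraries, 2 each of line 1, line 2 and WT, after ribosomal RNA depletion with a strand-keeping kit, per the labels' protocols. Per the submitters' processing notes, reads were trimmed with Trim Galore 0.4.1, aligned to mm10 with TopHat2 and handled with SAMtools, bedtools 2.25.0 and HOMER. The authors deposited expected counts per transcript from HOMER, without length or depth scaling per the file headers, in steps of 0.5; the planned test assumed whole counts, so values were rounded, 0.5 upward. The transcript with the highest total stood for each of 24470 symbols (28972 transcripts; 3356 symbols with several). Allele reads come from the authors' deposited table of 205 X-linked genes, with 0.5 in place of 0 reads, a mus fraction and a class; reads were rounded down, and mus shares have exact Clopper-Pearson 95% intervals.

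Counts were fitted over all 6 libraries with edgeR 4.0.16 (quasi-likelihood, TMM scaling, its default filter on low counts, R 4.3.3, limma 3.58.1) with Benjamini-Hochberg adjustment over all 12910 tested genes, and the pipeline was tested on simulated data. CPM are the counts used, scaled by edgeR to the TMM-corrected library size. The depth of 3812311 to 7067525 counts limits genes with few reads. DESeq2 1.42.0, upper-quartile scaling, no filter, only the groups compared, the longest transcript, a replicate block and each library left out were alternatives. Replicate 2 minus replicate 1 differences correlated between groups over 12910 genes. The r was 0.54 for WT with line 1, 0.594 for WT with line 2 and 0.528 for line 1 with line 2. The replicate numbers may pair the libraries, although they also split them by depth. The main fit, from which standard errors and adjusted p-values are given, did not use them. The block did, and called 4182 genes in line 1 and 1565 in line 2, against 1846 and 462 in the main fit.

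The 8 genes and the gene lists were chosen with earlier results of these data known. Named in each list were up to 4 genes with an adjusted p under 0.05 in either line, by the smaller p, and the first measured gene; all called neighbours were named. Flt4, Vegfc, Furin, Tspan11, Pir, Car5b, Xpnpep2 and the marker genes were named after their values were seen. Site lists of the authors have no score and were used as positions only; signal tracks were not used here. Sequences are from RefSeq (GRCm38.p6), where 7 of the 8 genes had a promoter window.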

Additional observations from a re-analysis of the deposited data

Results flagged for a closer look

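Of the 8 genes, Srpx2, Cask, Shroom2 and Vegfd are listed here because the fit across all genes called them between the deletion lines. Line 2 minus line 1 was 0.94 (SE 0.22) for Srpx2, -0.76 (SE 0.14) for Cask, 3.48 (SE 0.26) for Shroom2 and 0.66 (SE 0.16) for Vegfd on the log2 scale, where 12.6% of all genes and 16.1% of X-linked genes were called in that comparison. It shares libraries with the comparisons that chose the genes, so this is a description and no p is given. Tspan7 (0.40) and Gemin8 (-0.56) were among those not called.

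Of the genes named by rule, 23 others also differed between line 2 and line 1. Their adjusted p was at most 0.0415 in edgeR's quasi-likelihood test of that difference. Not among the 23 are genes named after their values were seen. Of these, Tspan11 (-8.22), Cnn1 (6.04), Dcn (-3.06), Lyz2 (2.40), Acta2 (1.13), Tubb3 (1.16) and Xpnpep2 (-1.89) had an adjusted p under 0.05 in that test. Among secreted and receptor-linked genes, line 2 minus line 1 was -3.33 for Mme, -4.25 for Ccbe1, -2.90 for Srpx, -0.79 for Ctsb and -2.25 for Hgf. Among tetraspanins it was -3.79 for Cd53, 2.28 for Tspan15, -0.83 for Tspan14 and 4.36 for Tspan2. Among scaffolds it was 1.21 for Magi3, -3.09 for Dlg2 and 2.36 for Lin7a, and the log2 ratio of Mpp3 counts was 3.68 (95% counting interval 1.68 to 6.80). Among cytoskeletal genes and lipid enzymes and their relatives it was 2.25 for Myl9, 3.19 for Shroom1, 4.32 for Shroom3, 2.40 for Pik3c2b and -0.82 for Mtmr11. Among neighbours it was -1.31 for Pcdh19, -1.25 for AA414768 and 0.96 for Gpr173, and the log2 ratio of Mageh1 counts was 5.78 (4.21 to 8.07). Tnmd was at least 66.8-fold higher in line 2 than in line 1 (its 2 empty line 1 libraries given 3 counts between them). Of these 23 differences, 10 were called in every fit without 1 library (Ccbe1, Tspan15, Tspan2, Magi3, Myl9, Shroom1, Shroom3, Pik3c2b, Tnmd and Mageh1). Without line 2 replicate 1, 12 were called, and without line 2 replicate 2, 11. Of those that were lost, Lin7a and Gpr173 were also lost without either WT library or line 1 replicate 2, AA414768 without either WT library or line 1 replicate 1, and Tspan14, Hgf and Mpp3 without line 1 replicate 2, with an adjusted p of up to 0.248.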

How the results depend on the processing

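Of 192 recomputed fold changes of the 8 genes, 179 stayed within the spread (the SD of replicates on the log2 scale). Of the others, 13 moved by more and 0 changed direction. The 8 were picked on totals of these libraries, and every setting refits the same counts, so nothing is read from this. The count of the 8 called in line 1 was 4 with only the groups compared in the fit and 1 to 5 when 1 library was left out, and that in line 2 was 0 to 4. Genes called among all tested were 718 to 2361 in line 1, 23 to 783 in line 2 and 601 to 1993 between the lines when 1 library was left out. With a replicate block they were 4182, 1565 and 3506, and in line 2 they were 946 with no filter and 792 with only the groups compared. Partner genes called in line 1 were 60 with the block and 13 to 31 with 1 library left out. In line 2 they were 13 with no filter, 10 with only the groups compared, 17 with the block and 0 to 10 with 1 library left out. Neighbours called in line 1 were 5 by DESeq2, 5 with only the groups compared, 14 with the block and 1 to 11 with 1 library left out, and in line 2 they were 10 with the block and 0 to 4. Why the counts moved was not tested; leaving out a library leaves a lone sample in its group, which is assumed to vary like the others. Depth limits Apln, Gemin8 and the mus reads most.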

Other observations

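Other cell type markers gave further values. Dcn, a fibroblast matrix gene, rose to 243 and 156 CPM in line 1, against 61.9 and 26.9 CPM in WT (log2 fold change 2.19, SE 0.43, adjusted p = 0.0215), and had 28.6 and 19.7 CPM in line 2. That call was lost without WT replicate 2 (adjusted p = 0.0586). Tubb3, a tubulin used as a neuron marker, fell to 7.84 and 5.87 CPM in line 1 and 14.5 and 15.5 CPM in line 2, against 37.9 and 32.2 CPM in WT (-2.37, adjusted p = 0.00208, and -1.21, adjusted p = 0.0404), and the line 2 call was lost without any WT or line 2 library (up to 0.280). Melanocyte and Schwann cell markers summed to 2.43 to 3.55 CPM in line 1, 2.12 to 3.63 CPM in line 2 and 2.88 to 3.03 CPM in WT. Their part in the values of the 8 genes was not tested.

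Xpnpep2, a peptidase gene 73.9 kb from Apln, had 14.6 and 9.01 CPM in line 1 and 4.60 and 1.97 CPM in line 2, against 4.04 and 3.52 CPM in WT, and missed the threshold in line 1 (1.62, SE 0.45, adjusted p = 0.0652). Smarca4, which encodes BRG1, had log2 fold changes of -0.22 (adjusted p = 0.526) in line 1 and -0.10 (adjusted p = 0.914) in line 2.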
